A study of Mus musculus with 6 samples.

Results

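Fragments of the leucine tRNAs with the anticodons CAA and CAG were followed in small RNA libraries of mouse brain. They were chosen by name. An entry of the table, called an ID here, is 1 tRNA-derived small RNA and belongs to the group when every tRNA name beside it is a Leu-CAA or Leu-CAG tRNA or precursor and at least 1 is a mature tRNA. The rule finds 23 of the 591 IDs. Of these, 13 name Leu-CAA tRNAs only, 4 name Leu-CAG tRNAs only and 6 name both. The mice were C57BL/6, a common inbred laboratory strain, aged 3 months (n = 3 libraries) or 22 months (n = 3 libraries), with no treatment or genetic change in the labels. Listed tags are reads counted to tRNA fragments. They summed to 57425, 45131 and 44156 in 3 month replicates 1, 2 and 3, and to 71121, 96130 and 84807 in those at 22 months. Every old library was thus deeper than every young one, so depth went with age. The smallest count a library lists is 8 to 11 tags at 3 months and 13 to 17 at 22 months. A 0 stands for any level under that minimum. The deposited columns are headed Age and WT with the numbers 1 to 3, and were read as 22 and 3 months with those replicate numbers. Nothing in the labels states that each replicate came from its own animal. The p-values then reflect only how far these samples vary, which may be technical. The table holds no marker genes, so the tissue label could not be checked.

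A tRNA carries an amino acid to the ribosome and reads codons with its anticodon. Leu-CAA and Leu-CAG are isoacceptors, tRNAs that carry the same amino acid with different anticodons. Leucine tRNAs have a long variable arm between the anticodon arm and the T arm, and Leu-CAA genes in mammals carry an intron next to the anticodon. Angiogenin and other nucleases cut tRNAs, for example in the anticodon loop, and the fragments that result, found in brain among other tissues, are named by the part of the tRNA they keep.

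The table gives the sequence of each parent tRNA and not of the fragment. The parents are therefore shown here, 5′ to 3′ and with the anticodon in capitals, because where they differ decides which tRNA an ID can be assigned to.
Leu-CAA-1-1: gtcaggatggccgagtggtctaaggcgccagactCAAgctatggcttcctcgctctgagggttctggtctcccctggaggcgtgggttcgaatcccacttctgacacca
Leu-CAA-2-1: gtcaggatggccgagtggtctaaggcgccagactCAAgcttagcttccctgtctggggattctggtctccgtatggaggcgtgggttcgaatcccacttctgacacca
Leu-CAA-3-1: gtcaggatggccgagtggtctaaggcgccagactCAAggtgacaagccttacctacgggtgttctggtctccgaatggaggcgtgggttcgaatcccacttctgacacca
Leu-CAA-4-1: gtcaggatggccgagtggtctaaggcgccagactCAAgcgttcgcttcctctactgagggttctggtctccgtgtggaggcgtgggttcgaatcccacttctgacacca
Leu-CAG-2-1: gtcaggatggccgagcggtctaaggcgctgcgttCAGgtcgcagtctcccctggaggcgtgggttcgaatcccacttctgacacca
Leu-CAG-4-1: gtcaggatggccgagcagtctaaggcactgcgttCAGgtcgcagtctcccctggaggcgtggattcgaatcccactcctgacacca

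The 4 Leu-CAA sequences are identical over their first 38 nt and their last 35 nt, and differ only between. Their lengths are 109, 108, 110 and 109 nt in the order of their numbers, against 86 nt for every Leu-CAG sequence. RefSeq (GRCm38.p6, the same assembly as the mm10 named in the submitters' processing notes) lists 4 Leu-CAA genes of 105 to 107 nt and 10 Leu-CAG genes of 83 nt. The listed sequences are thus as long as the genes plus the CCA end that is added after transcription. The Leu-CAA parents called mature are therefore of full gene length, with any intron still in them. The part in which the 4 differ would hold that intron, so an ID tied to 1 Leu-CAA tRNA may be a piece of intron or precursor. A mature name does not show that a fragment came from a spliced tRNA. The Leu-CAA genes lie on chromosome 13 at 21172837 to 21172942 (n-TLcaa4), 21200204 to 21200308 (n-TLcaa1) and 21914838 to 21914943 (n-TLcaa2), and on chromosome 11 at 58302474 to 58302580 (n-TLcaa3). None of the 4 overlaps a gene in GENCODE vM21. Of the 10 Leu-CAG genes 5 lie on chromosome 1, 3 on chromosome 8 and 1 each on chromosomes 3 and 13. GENCODE places n-TLcag1 in an intron of Naaladl2 and n-TLcag2 in an intron of Sgcz, and has no gene at the other 8. Which of these genes made a given fragment cannot be told from the table, and gene names were not tied to single tRNA names.

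The names beside an ID limit where in the tRNA it can lie. The 3 stretches below are the longest runs that all names of an ID share, and they are shown because they set apart the IDs that name both anticodons. Capitals mark the letters outside the 25 nt run that the 3 have in common, called the T arm run here. That run holds the T arm and also the end of the variable arm before it.
AS-tDR-011859: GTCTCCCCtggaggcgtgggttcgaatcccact
AS-tDR-013655: tggaggcgtgggttcgaatcccact
AS-tDR-000084: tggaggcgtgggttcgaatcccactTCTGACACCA

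The 33 nt run of AS-tDR-011859, shared with AS-tDR-011887 and AS-tDR-011397, covers positions 44 to 76 of Leu-CAG-2-1, counted from its 5′ end. It adds more of the variable arm, and it occurs in 9 of 10 mature Leu-CAG names and in 1 of 4 mature Leu-CAA names, Leu-CAA-1-1. The 25 nt run of AS-tDR-013655, at positions 52 to 76, occurs in 4 of 4 Leu-CAA and 9 of 10 Leu-CAG names. AS-tDR-000084 is listed under 7 mature names and no precursor, and its 35 nt run, at positions 52 to 86, reaches the CCA end. None of the 3 runs occurs in the 13 mature names of other leucine tRNAs or in the 309 of other amino acids. AS-tDR-013478 shares the same 25 nt run, but for its 15 names no run of 15 nt or more is in all of them and in no other name. Its name list is therefore not one of exact containment, and places read from name lists are limits, not measured ends.

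The other 17 IDs are each tied to 1 tRNA. Leu-CAA-3-1 has 4, Leu-CAA-2-1 with its precursor 3, Leu-CAA-4-1 with its precursor 4, Leu-CAA-4-1 without its precursor 2, and Leu-CAG-4-1 has 4. No ID names Leu-CAA-1-1 alone. For the pair under mature Leu-CAA-4-1 only, AS-tDR-000085 and AS-tDR-006200, any run that no other name holds is at least 35 nt long, starts at or before position 74 and ends at position 108 or 109, in the CCA end. IDs of 1 tRNA can overlap and are not independent of one another.

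**Figure D1:**
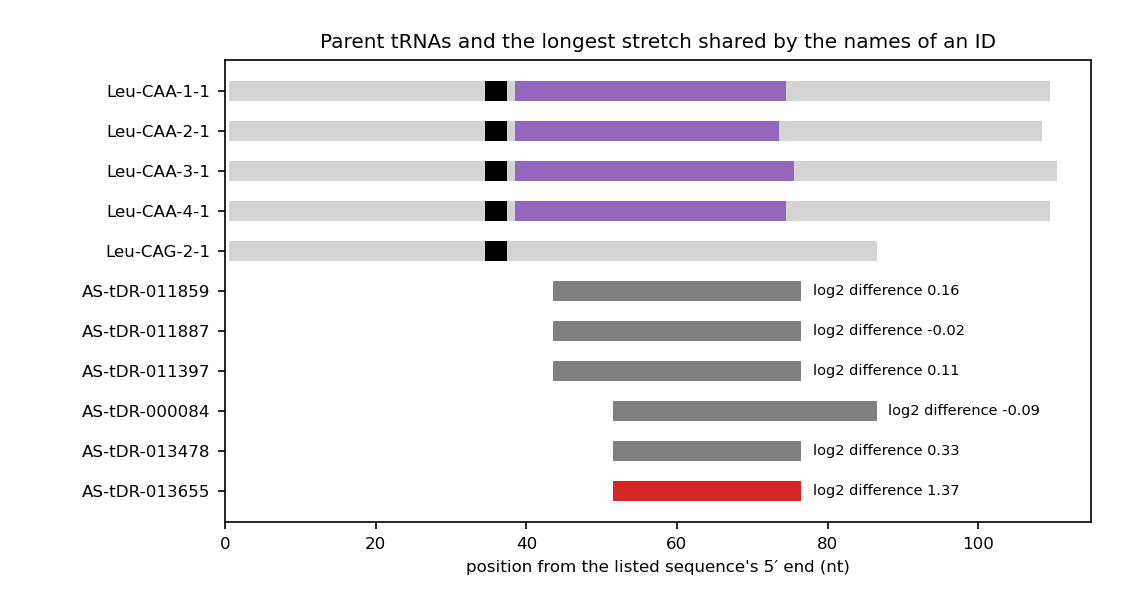
Parent tRNAs and shared stretches by position (x axis, nt from the 5′ end of the listed sequence). Black marks the anticodon, purple the part of each Leu-CAA sequence between the 38 nt and 35 nt ends that all 4 share. The lower bars are the longest stretches shared by the names of each ID that names both anticodons, drawn in red where the ID rose at 22 months and in grey where it did not pass the test, with the log2 difference beside each. AS-tDR-013655 is the red bar, at 1.37.

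Summed over their IDs, fragments naming Leu-CAA tRNAs only took a larger share of listed tags in every old library than in any young one, while the summed shares of the other groups overlapped between the ages. Of the 13 Leu-CAA IDs, 5 rose and 8 did not pass at an edgeR adjusted p under 0.05, the test described below. Over all IDs tested 4.78% rose and 1.82% fell. Of the 6 IDs of Leu-CAA-4-1, 0 passed. Leu-CAA fragments took 1.17%, 1.13% and 1.40% of listed tags in 3 month replicates 1, 2 and 3, and 2.68%, 1.63% and 2.51% in those at 22 months. Every 22 month library lay above every 3 month library, and the means were 1.24% ± 0.147 and 2.27% ± 0.564 (SD, n = 3 each), 1.84-fold apart. Fragments naming both anticodons took 1.96% ± 0.237 and 2.00% ± 0.453 (SD, n = 3 each), and the ages overlapped. Leu-CAG-4-1 fragments took 0.0747% ± 0.0117 and 0.0780% ± 0.0207 (SD, n = 3 each), and overlapped too. These sums were not tested. In whole tissue, more cells of a type and more of an RNA per cell cannot be told apart. Nor does a share tell a rise of these tags from a fall of others.

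**Figure D2:**
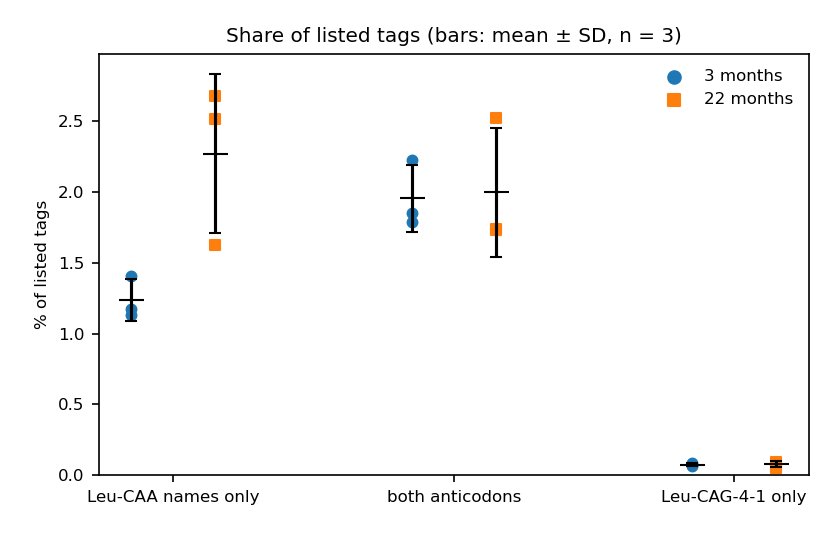
Share of listed tags (y axis, %) in each library for fragments that name Leu-CAA tRNAs only, both anticodons, or Leu-CAG-4-1 only. Points are libraries, bars mean ± SD (n = 3 per age). The ages are apart for Leu-CAA names only (1.24% and 2.27%) and overlap in the other groups.

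By single ID, 21 of the 23 passed the filter on low counts. AS-tDR-009049 and AS-tDR-000083, both of Leu-CAG-4-1, had 13 and 8 tags in 1 library at 3 months each and 0 in all others, and were not tested. Of the 21, 6 rose at 22 months, 0 fell and 15 did not pass at an adjusted p of 0.05 (edgeR's quasi-likelihood test, adjusted over all 439 IDs by Benjamini-Hochberg). Over all IDs tested 4.78% rose and 1.82% fell. The 6 comprise 3 of 3 IDs of Leu-CAA-2-1, 2 of 4 of Leu-CAA-3-1, and AS-tDR-013655. Each had adjusted p = 0.0489, a value they share because the adjustment ties them, and their unadjusted p lay between 0.00116 and 0.00312. At an unadjusted p under 0.05, 9 members were higher, against 15.7% of all IDs, and 0 were lower, against 9.79%. DESeq2 called 8 members higher, including these 6, where 13.4% of all IDs were called higher and 8.66% lower. Limma-voom called 6 higher, including 5 of the 6, where 5.92% of IDs were higher and 4.56% lower. With DESeq2's size factors in edgeR the 6 passed, where 6.61% of IDs were higher and 3.42% lower. Among IDs above 0 in all 6 libraries 7 of 17 members rose, where 13.1% of IDs rose and 9.31% fell. With zeros set just under each library's minimum 8 of 23 rose, where 4.74% of IDs rose and 3.72% fell. None of these fits called a member lower. In 4 other fits 0 members passed, and 0% of all IDs did in either direction: scaled by library size only, scaled to the smallest listed count, with no filter on low counts, and with the replicate number as a block. Of the members, 8 or 9 were at an unadjusted p under 0.05 in these 4. The share of all IDs at that unadjusted level was not counted in these 4, so the member counts cannot be weighed against it.

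The calls rest on few libraries. Without 3 month replicate 1, 2 or 3 or without 22 month replicate 1, 0 members and 0% of all IDs passed in edgeR, with 8 or 9 members at an unadjusted p under 0.05. The share of all IDs at that unadjusted level was not counted in those fits. Without 22 month replicate 2, 4 passed, where 1.81% of IDs rose and 1% fell. Without 22 month replicate 3, 1 passed, where 0.81% rose and 1.42% fell. The 6 stayed positive in each of these fits.

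The median log2 difference between 22 and 3 months was 0.63 over the 21 tested members and -0.16 over all 439 IDs. It was 1.17 over the 13 IDs of Leu-CAA names only, of which 11 were positive, and 0.13 over the 6 IDs naming both anticodons, of which 4 were positive. All 3 libraries at 22 months lay above all 3 at 3 months for 11 members and below them for 1. Over all IDs tested these shares were 19.4% and 20%. The 11 include AS-tDR-013689, AS-tDR-015060 and AS-tDR-000045, which had a listed 0 at 3 months and passed the filter only through their 22 month libraries. These counts leave out the 2 members that the filter removed, both listed at 3 months only.

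**Figure D3:**
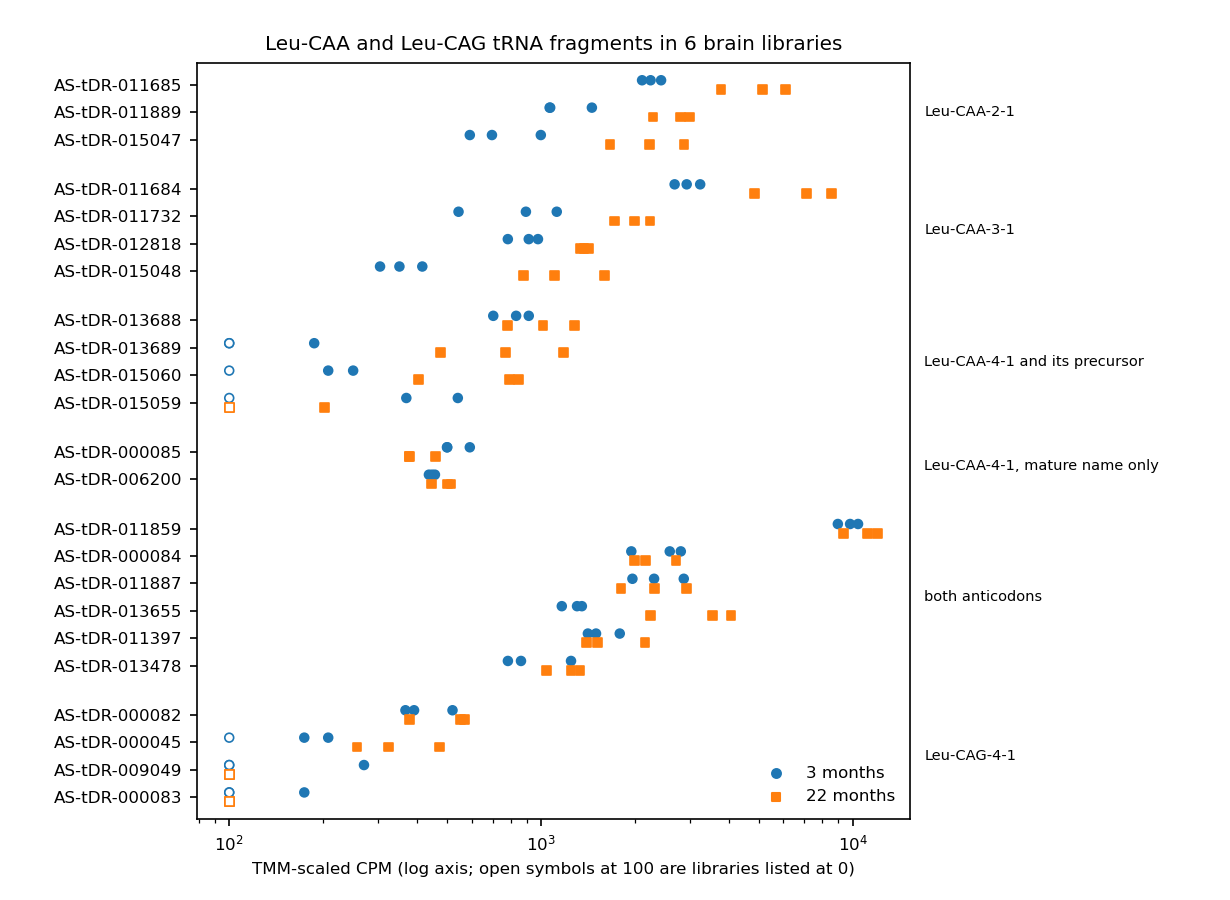
Level of each member in each library (x axis, TMM-scaled CPM, log axis), grouped by the tRNA names beside the ID. Circles are 3 month and squares 22 month libraries, and open symbols drawn at 100 stand for a listed 0. Squares lie to the right of all circles for the 3 IDs of Leu-CAA-2-1 and the 4 of Leu-CAA-3-1.

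The 3 fragments of Leu-CAA-2-1 rose together. Levels of single IDs are given as CPM, tags scaled to the same total in every library with edgeR's TMM factors. AS-tDR-011685 was at 2429, 2111 and 2248 CPM in 3 month replicates 1, 2 and 3 and at 5137, 3782 and 6076 in those at 22 months. All old libraries lay above all young ones. It rose by 1.14 on the log2 scale (SE 0.23; edgeR adjusted p = 0.0489), with means of 2263 ± 160 and 4999 ± 1153 CPM (SD, n = 3 each). AS-tDR-011889 was at 1071, 1066 and 1457 CPM at 3 months and 2805, 2289 and 3003 at 22 months, a log2 difference of 1.17 (SE 0.22). AS-tDR-015047 had the largest difference of the 3, 1.57 (SE 0.31), from 591, 696 and 999 to 2225, 1665 and 2878 CPM. In all 3 the ages did not overlap, and 22 month replicate 2 was the lowest old library.

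All 4 fragments of Leu-CAA-3-1 had positive differences and 2 of them rose. AS-tDR-011684, the most abundant ID of a single tRNA in the group, was at 2685, 3243 and 2935 CPM at 3 months and 7092, 4835 and 8537 at 22 months. Its log2 difference was 1.21 (SE 0.26), a 2.31-fold ratio of means. AS-tDR-015048 rose most of the 6 called members, by 1.73 on the log2 scale (SE 0.30), from 352, 305 and 416 CPM to 1106, 881 and 1599. Both had every old library above every young one. AS-tDR-011732, at 854 ± 292 and 1987 ± 256 CPM (SD, n = 3 each), had a difference of like size, 1.21 (SE 0.30), and did not pass (edgeR adjusted p = 0.0582). It passed in DESeq2 (adjusted p = 0.00391), in limma-voom (0.0454) and in edgeR over IDs above 0 in all 6 libraries (0.0227). AS-tDR-012818, named after its values were seen, had the smallest difference of the 4, 0.63 (SE 0.18; edgeR adjusted p = 0.0773), and of the 15 alternative fits passed in DESeq2 only (adjusted p = 0.0241). Its libraries did not overlap either, at 783, 914 and 978 against 1375, 1420 and 1335 CPM.

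Fragments of Leu-CAA-4-1 were mixed and 0 of 6 passed the test in edgeR, with 1 of the 6, AS-tDR-013689, at an unadjusted p under 0.05. It had 0, 0 and 9 tags at 3 months and 57, 39 and 85 at 22 months, so its young libraries sit at or below the smallest listed count. The fitted log2 difference of 3.70 (SE 1.36; edgeR adjusted p = 0.145) lay between 2.22 and 8.77 over the alternative fits. AS-tDR-015060 was also near the minimum in young brain, with 13, 0 and 12 tags against 63, 33 and 57 (edgeR adjusted p = 0.257). With zeros set just under each library's minimum, AS-tDR-013689 and AS-tDR-015060 both passed (edgeR adjusted p = 0.0395). Their zeros at 3 months were replaced by set values in that fit, so part of the spread it used was not measured. AS-tDR-015059 went the other way, with 0, 17 and 26 tags at 3 months and 15, 0 and 0 at 22 months, and the ages overlapped (log2 difference -2.14, SE 2.22). The most abundant of the 4 that also name the precursor, AS-tDR-013688, overlapped between the ages, with means of 817 ± 106 and 1026 ± 249 CPM (SD, n = 3 each) and an estimate of 0.33 (SE 0.25). The pair whose names place them at the CCA end had small differences. AS-tDR-006200 averaged 447 ± 9.95 CPM in young and 487 ± 37.0 CPM in old brain (SD, n = 3 each), and its estimate was 0.12 on the log2 scale (SE 0.27). AS-tDR-000085 was the 1 member with all old libraries below all young ones, at 591, 500.5 and 499.6 against 378, 379 and 459 CPM, and it did not pass (log2 difference -0.39, SE 0.28; edgeR adjusted p = 0.454). AS-tDR-013688, AS-tDR-015060, AS-tDR-006200 and AS-tDR-000085 were named after their values were seen.

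Of the 6 fragments that name both anticodons, 1 rose, where 4.78% of all IDs tested rose. AS-tDR-011859, from the variable arm and T arm run, was the most abundant member, 14th by mean CPM among all IDs. It was at 8966, 9815 and 10408 CPM at 3 months and 12041, 11152 and 9371 at 22 months, overlapping. The log2 estimate was 0.16 (SE 0.19) with an edgeR adjusted p = 0.657. Its run-mates AS-tDR-011887 and AS-tDR-011397 had -0.02 (SE 0.25) and 0.11 (SE 0.23). Scaled by library size only, the 3 were at -0.043, -0.21 and -0.080 in that order, so the sign turned for AS-tDR-011859 and AS-tDR-011397. For AS-tDR-011887 it turned without 3 month replicate 2 or 3 or 22 month replicate 3. AS-tDR-000084, which its names place at the CCA end, averaged 2450 ± 447 CPM in young and 2292 ± 373 CPM in old brain (SD, n = 3 each). Its log2 difference was -0.09 (SE 0.22), and its sign turned without 3 month replicate 2 or 3 or 22 month replicate 1.

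The 2 IDs for which the T arm run is the longest run shared by their names differed in what they showed. For AS-tDR-013478 the place is uncertain, since its name list is not one of exact containment. AS-tDR-013655 was at 1167, 1306 and 1353 CPM at 3 months and 3546, 2252 and 4074 at 22 months, and rose by 1.37 on the log2 scale (SE 0.26; edgeR adjusted p = 0.0489). AS-tDR-013478, listed under 15 names against 21, was at 863, 783 and 1249 CPM and at 1335, 1249 and 1043, overlapping, with a difference of 0.33 (SE 0.25; edgeR adjusted p = 0.476). The difference between the 2 IDs was not tested.

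**Figure D4:**
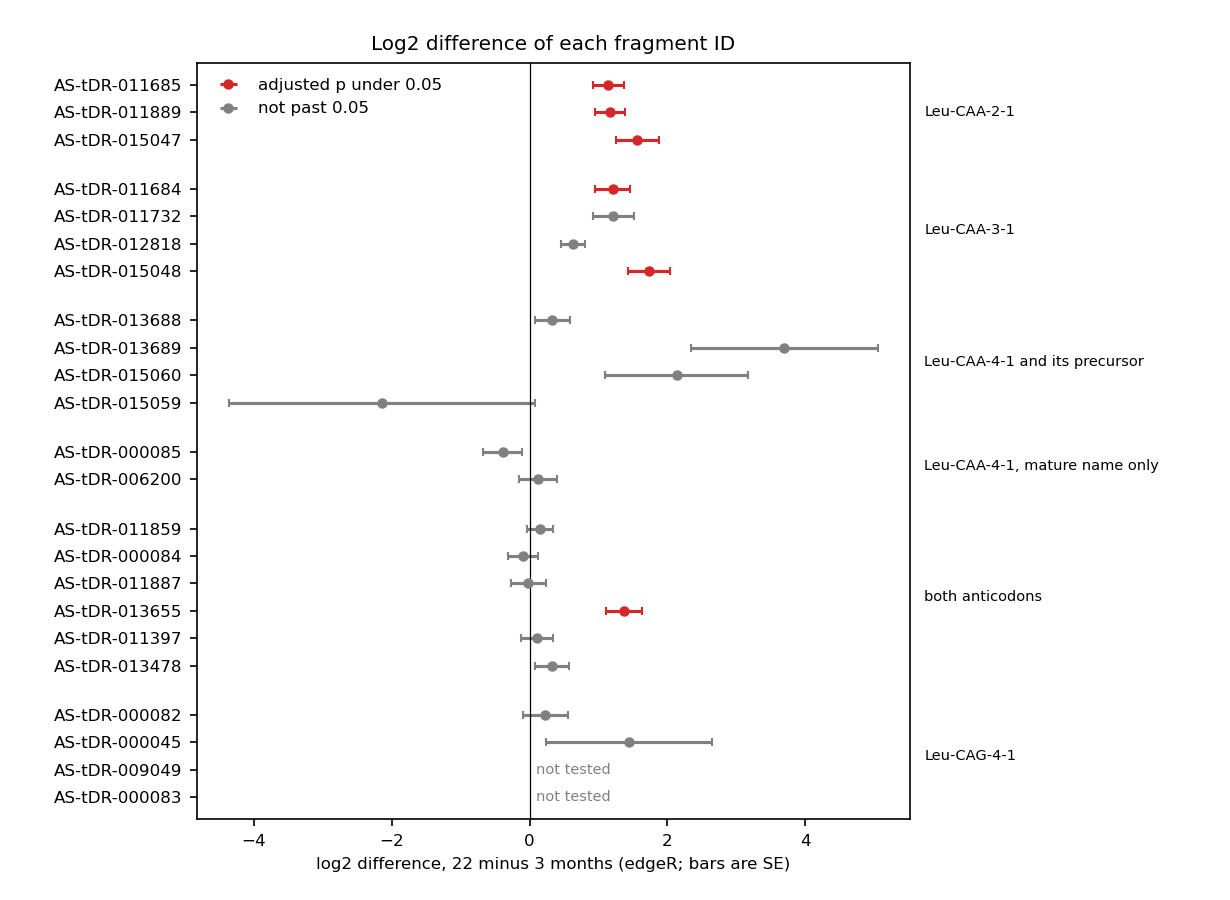
Log2 difference of each tested member, 22 minus 3 months (x axis), with its SE. Red points passed the edgeR test at an adjusted p under 0.05 and grey points did not. Red points are the 3 IDs of Leu-CAA-2-1, 2 of Leu-CAA-3-1 and AS-tDR-013655, between 1.14 and 1.73.

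Leu-CAG-4-1 is the only Leu-CAG tRNA with IDs of its own. Of its fragments, 2 of 4 were tested and 0 passed in edgeR, with 0 at an unadjusted p under 0.05. DESeq2 and limma-voom called 0 as well. AS-tDR-000045 had 13, 8 and 0 tags at 3 months and 24, 21 and 34 at 22 months, with every old library above every young one (log2 difference 1.44, SE 1.20; edgeR adjusted p = 0.506). AS-tDR-000082, named after its values were seen, was at 368, 392 and 520 CPM and at 553, 379 and 570, and its ages overlapped (log2 difference 0.23, SE 0.33).

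Ratios of tags within a library do not depend on scaling between libraries. For each tag of AS-tDR-011859 there were 0.456, 0.395 and 0.452 tags of the 3 Leu-CAA-2-1 IDs in 3 month replicates 1, 2 and 3, and 0.844, 0.694 and 1.28 at 22 months. The 4 Leu-CAA-3-1 IDs had 0.526, 0.510 and 0.524 tags at 3 months and 0.961, 0.795 and 1.46 at 22 months. AS-tDR-013655 had 0.130, 0.133 and 0.130, and 0.295, 0.202 and 0.435. In these 3 the young libraries were close together and every old library lay above them, with replicate 3 the highest. AS-tDR-011859 itself was lowest among the old libraries in replicate 3, at 9371 CPM, which raises the ratios there. For Leu-CAA-4-1 with its precursor the ratios overlapped between the ages, at 0.102, 0.131 and 0.174 against 0.258, 0.149 and 0.319. For mature Leu-CAA-4-1 only they overlapped at 0.116, 0.0976 and 0.0900 against 0.0683, 0.0790 and 0.104. These ratios were not tested.

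**Figure D5:**
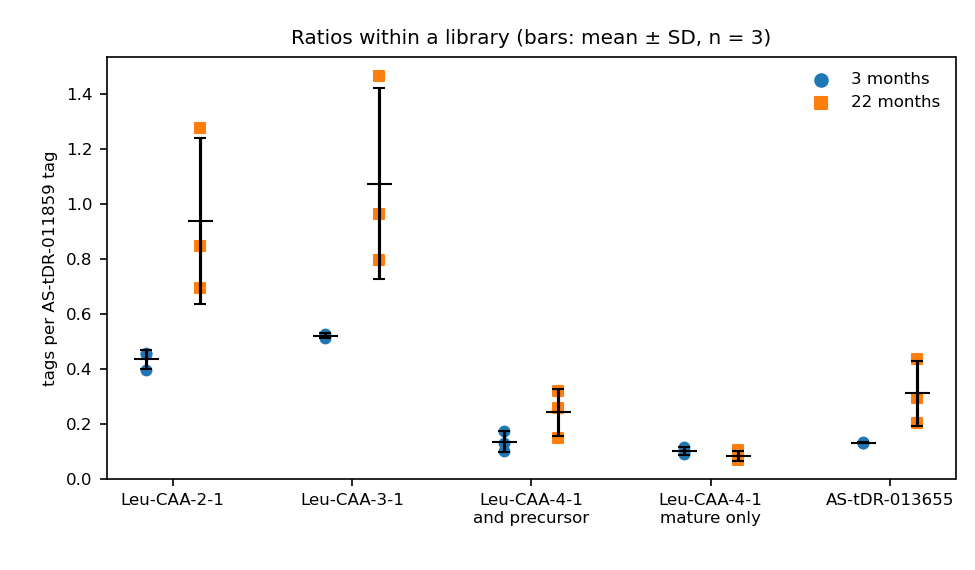
Tags per tag of AS-tDR-011859 in the same library (y axis) for the summed IDs of each Leu-CAA tRNA and for AS-tDR-013655. Points are libraries, bars mean ± SD (n = 3 per age). Young libraries of Leu-CAA-3-1 lie between 0.510 and 0.526 and old ones between 0.795 and 1.46.

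Among the other leucine tRNAs, 32 IDs name Leu-AAG, Leu-TAG or Leu-TAA only, and 25 were tested. Of these 7 rose, 0 fell and 18 did not pass, where 4.78% of all IDs tested rose and 1.82% fell. At an unadjusted p under 0.05, 16 were higher and 1 was lower, against 15.7% and 9.79% of all IDs. Every old library lay above every young one for 17 and below for 1, against 19.4% and 20%. Their median log2 difference was 0.93, between the 1.17 of Leu-CAA names and the 0.13 of IDs naming both member anticodons. Whether the lists differ was not tested. Outside the group, 4 IDs name Leu-CAA precursors only. Of these 3 were tested and 0 passed, with 3 positive and a median log2 difference of 0.76. Of 273 IDs outside the group that were above 0 in all 6 libraries, the nearest to the summed Leu-CAA level were AS-tDR-012687 of Leu-TAA, AS-tDR-010081 of Leu-TAG and AS-tDR-007333 of Gly-GCC. Their root mean square difference from it was 0.11, 0.13 and 0.17 in log2 CPM centred on the mean of the 6 libraries. For the summed Leu-CAG-4-1 level the nearest were AS-tDR-000067 of Cys-GCA, AS-tDR-000076 of Gly-ACC, Val-AAC and Val-CAC, and AS-tDR-006248 of Ala-CGC and Ala-TGC, at 0.14, 0.16 and 0.18.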

How the data were processed

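Brain RNA was extracted with Trizol and small RNA libraries were sequenced (single-read, Illumina NextSeq), per the labels' protocols. FastQC, cutadapt, Novoalign and mm10 are named in the submitters' processing notes. Neither the counting program, its settings nor the source of the IDs is stated there. The values are tag counts per ID, per the file headers. The table's title calls it normalized, but the deposited counts are whole numbers with different totals, and were treated as raw. It has 3257 lines, 1 per ID and tRNA name, with 503 names; counts repeat over an ID's lines, and each ID was taken once.

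All 591 IDs entered 1 fit (edgeR 4.0.16, R 4.3.3): low IDs were removed by filterByExpr (minimum count 10), libraries were scaled by TMM, and age was tested by quasi-likelihood without a replicate term, with p-values of the 439 IDs kept adjusted by Benjamini-Hochberg. It was run on simulated counts with less spread than these, larger changes than the called members had and no listing minimum. That run does not show how the fit performs on data like these. The SE was taken as the absolute log2 difference over the square root of the F statistic. DESeq2 1.42.0 and limma-voom (limma 3.58.1) were alternatives. No replicate pair agreed within sampling noise. Chi-square over its degrees of freedom was 6.60 to 10.2 at 3 months and 16.9 for 22 month replicates 1 and 2. For 22 month replicate 3 it was 54.8 against replicate 1 and 59.7 against replicate 2, so that library differed most. It also had the most IDs at 0, 218. Library totals of 44156 to 96130 tags limit precision, and every 22 month total was above every 3 month total. Shared stretches were sought in all 503 names at a minimum of 15 nt. Python scripts used pandas 2.3.3 and matplotlib 3.10.9.

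Members, lists, tests and alternatives were chosen with earlier results of these data known. Members named with values were those past the threshold, the 10 most abundant, those naming both anticodons and above 0 in all libraries, the largest and smallest difference per anticodon, and any at 0 in all libraries of 1 age and above 0 in all of the other, of which there were 0. Others are said to be named after their values were seen. None of 6 brain or blood miRNA names looked for is in the table.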

Additional observations from a re-analysis of the deposited data

How the results depend on the processing

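The 6 members that rose had a positive log2 difference in all 15 alternative fits, between 0.94 and 1.92. How many members rose depended on the fit: 0 with library size only, 0 scaled to the smallest listed count, 0 with all IDs kept, 0 with a replicate block, in each of which 0% of all IDs passed, and 0 to 4 with 1 library left out. For the 6, adjusted p lay between 0.000166 (DESeq2) and 0.195 (replicate block). The cause was not tested. No alternative called a member lower. The median over members, 0.63, was 0.42 with library size only, 0.33 with no filter, 0.31 over IDs above 0 in all 6 libraries, where 7 of 17 members rose against 13.1% of IDs, and 0.30 with zeros placed just under each library's minimum. The filter settings change which members count. Library size only moved the median of all IDs from -0.16 to -0.34. Signs turned for AS-tDR-011397 (-0.080 with library size only, -0.041 scaled to the smallest listed count) and AS-tDR-011859 (-0.043 and -0.0091), and with 1 library left out for AS-tDR-000084 (-0.23 to 0.052) and AS-tDR-011887 (-0.14 to 0.20). Among IDs with no precursor name, Leu-CAA shares were 0.643% at 3 and 1.12% at 22 months, and shares of IDs naming both anticodons 0.261% and 0.209%, since fewer IDs are summed. Shares with TMM scaling or without leucine in the denominator stayed within 1 SD.

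Whether replicate numbers pair the libraries cannot be settled with 3 libraries per age. Deviations of the same number correlated at -0.54, 0.14 and -0.37 across 290 IDs, and 2 of 6 libraries correlated best with their own number. The largest correlation, 0.52, was between 3 month replicate 3 and 22 month replicate 1. With the replicate block 0 members passed, with 9 at an unadjusted p under 0.05, a level not counted over all IDs in that fit.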
